A study of Mus musculus with 2 samples.

Results

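Rab proteins are small GTPases that give intracellular membranes their identity, and the genes of this family were followed in epididymal white adipose tissue of mice on 2 diets. Members were the probe sets whose single annotated symbol is a Rab followed by its number, with an optional letter and digit, so that regulators and effectors with longer names stayed out. This rule found 132 probe sets for 59 genes, out of 34945 probe sets with a single symbol for 18193 genes, and it used no measured value. Each array carries several short probes per transcript, summarised by the authors into 1 linear intensity per probe set.

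The tissue is the visceral fat pad beside the epididymis, from male C57BL/6 mice. All mice ate regular food up to 9 weeks of age, when the diets began. The high-fat diet group was 1 mouse that received this diet for 7 weeks, and the chow group was 1 mouse on normal chow, with 1 array each. Neither group had a replicate, so the diet could not be tested and no p-value is given. Every statement of direction is about these 2 mice, and the precision of each value is limited by their number. In whole tissue, fewer cells of a type and less RNA per cell cannot be told apart.

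A Rab protein cycles between an active, GTP-bound state on a membrane and an inactive, GDP-bound state that a carrier protein holds in the cytosol. Exchange factors load GTP, activating proteins trigger its hydrolysis, and the active form recruits effectors that tether, move or fuse vesicles. In fat cells this traffic carries the glucose transporter GLUT4 to the surface after insulin, secretes adipokines and serves lipid droplets.

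The labelled tissue was checked against its markers. Of the mature adipocyte list 13 genes had a probe set with a single symbol. All 13 were measured, 12 of them on both arrays, with Fabp4 at 11559.7 on the high-fat diet and 10726.6 on chow. The summed intensity of the 13 was 64130.9 on the high-fat diet and 60388.7 on chow. The direction was not uniform, as the list split into 9 higher and 4 lower. Its median log2 difference, high-fat diet minus chow, was 0.06. Among the 4 lower, Slc2a4 had 634 on the high-fat diet and 898.3 on chow, and Pparg had 795.6 and 1115.6. The other probe sets of Fabp4 differed by -0.14, -0.07 and 0.42 log2 units. A gene counted as measured where a probe set reached the floor for weak signal, an intensity of 27.9 on the high-fat diet array and 28.6 on the chow array, and its brightest measured probe set stood for it. By this rule 51 of the 59 Rab genes were measured, 50 of them above both floors. Differences are in log2 units, with the chow value subtracted from the high-fat diet value. As a yardstick of probe error, probe sets of the same gene scattered around their gene's mean difference with a pooled SD of 0.37 (log2) at mean intensities under 100, of 0.29 between 100 and 400 and of 0.20 above 400. This SD holds no difference between animals. Its classes go by the mean over a gene's probe sets, whereas each gene was placed in a class by its brightest probe set.

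The Rab family was close to level between the diets. Of the 51 measured genes 1 was 1.5-fold or more higher on the high-fat diet, where 5.74% of all 14066 measured genes were, and 1 was 1.5-fold or more lower, against 6.33% of all genes. None was 2-fold higher and none was 2-fold lower, against 1.16% and 1.33% of all genes. The median difference was 0.02 over the Rab genes and -0.02 over all measured genes. Of the Rab genes 28 were higher and 23 lower, against 6582 higher and 7442 lower of all 14066 genes. Within 0.25 log2 units lay 37 Rab genes, 72.5% of them, against 54.9% of all genes. The median size of the difference, regardless of sign, was 0.15 in the Rab genes and 0.22 in all genes.

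Weak probe sets scatter more than bright ones, so the sizes were also set side by side within classes of intensity. Under a mean intensity of 100 the median size was 0.25 over 12 Rab genes and 0.28 over all genes of that class. Between 100 and 400 it was 0.11 over 21 Rab genes and 0.19 over all genes, and above 400 it was 0.12 over 18 Rab genes and 0.16 over all genes. The median size was thus smaller in the Rab genes than in all genes in each of the 3 classes, a description that could not be tested. Both Rab genes past 1.5-fold belong to the weakest class. In that class 83.3% of the Rab genes lay within 1.5-fold, close to the 82.6% of all its genes. Both Rab33a and Rab37 were under 1.5-fold with a pseudocount of 16 in place of the floor, at 0.46 and -0.50. With the floor at the 60th percentile neither was measured. Among the 50 Rab genes above both floors, 14 differed by more than the probe SD of their class, 28.0% of them against 34.2% of all such genes, and none by more than 2 such SDs.

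**Figure D1:**
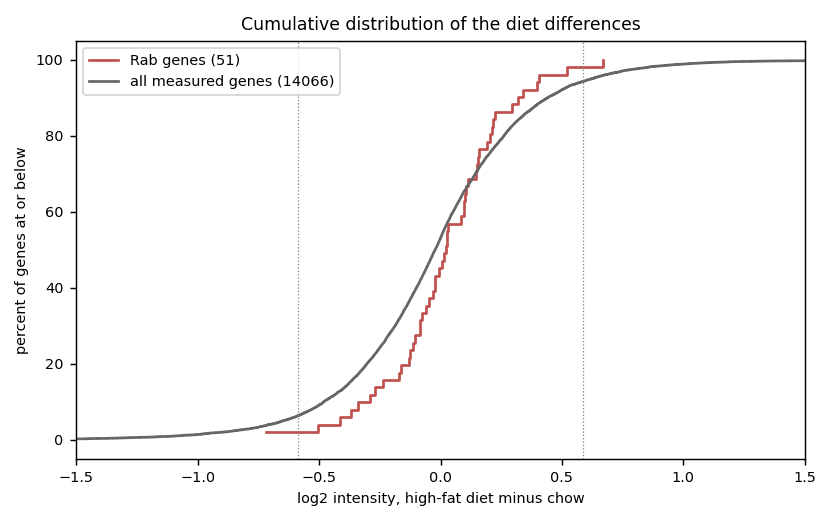
Cumulative share of genes (vertical axis, percent) by their log2 difference, high-fat diet minus chow (horizontal axis), for the 51 measured Rab genes and all 14066 measured genes, with dotted lines at 1.5-fold. The Rab curve is steeper around 0, with 49 of 51 genes between the dotted lines.

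Rab genes of the early endosome, the first station of endocytosed cargo, showed small positive differences in the probe sets used for the Rab5 group. Rab5a, Rab5b and Rab5c drive the fusion of early endosomes. Rab5a had an intensity of 550.2 on the high-fat diet and 496.8 on chow, a difference of 0.15. Rab5c had 442.9 on the high-fat diet and 378.8 on chow, a difference of 0.23. Rab5b had 125.6 on the high-fat diet and 112.8 on chow, a difference of 0.16, while its other measured probe set was under the floor at 23.1 on the high-fat diet and at 30.4 on chow. Rab21, which accompanies integrins into endosomes, had 279.4 on the high-fat diet and 251.8 on chow, and its pair of probe sets differed by 0.15 and 0.21. All 4 genes were thus higher on the high-fat diet in the probe set used, and only Rab5c by more than the probe SD of its class. The mean intensity of Rab5c, 409.6, lay just above the limit of 400, and its difference was under the SD of 0.29 of the class below. The other measured genes of this group differed in the probe set used by -0.06 for Rab22a, which links early and recycling endosomes, -0.03 for Rab17, a gene of epithelial transcytosis, and -0.01 for Rab31, which acts between the Golgi and endosomes. The other probe set of Rab31 differed by -0.46, at 91.2 on the high-fat diet and 125.5 on chow. In Rab22a the 3 other probe sets differed by 0.26, -0.37 and -0.54, so that its direction depends on the probe set. The median of the 7 measured genes was 0.15, but 0.016 with the mean of all probe sets per gene and -0.0080 when each gene took its least different probe set.

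A pair of these early endosome genes shares a sequence feature in the 250 bases before their annotated start, which is why these stretches are shown. A search of RefSeq windows on both strands found the letters GTCACGTGAC, a palindrome known as the ideal form of the CLEAR element of lysosomal and autophagy genes, in 2 of 60 windows of 48 Rab genes, those of Rab5a and Rab21, and in 0.24% of all 32851 windows. The capitals mark it below, and Rab5c, whose window does not hold it, is shown beside them.
Rab5a: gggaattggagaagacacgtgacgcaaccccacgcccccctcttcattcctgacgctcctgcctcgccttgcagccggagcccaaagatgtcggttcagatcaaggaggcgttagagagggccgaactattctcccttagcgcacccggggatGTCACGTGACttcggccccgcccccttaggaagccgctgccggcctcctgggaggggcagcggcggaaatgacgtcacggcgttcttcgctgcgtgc
Rab21: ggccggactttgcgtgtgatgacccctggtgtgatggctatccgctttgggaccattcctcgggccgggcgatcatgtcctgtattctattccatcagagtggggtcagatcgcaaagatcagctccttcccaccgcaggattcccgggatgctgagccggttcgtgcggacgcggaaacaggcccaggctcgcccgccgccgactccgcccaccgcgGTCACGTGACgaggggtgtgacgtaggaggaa
Rab5c: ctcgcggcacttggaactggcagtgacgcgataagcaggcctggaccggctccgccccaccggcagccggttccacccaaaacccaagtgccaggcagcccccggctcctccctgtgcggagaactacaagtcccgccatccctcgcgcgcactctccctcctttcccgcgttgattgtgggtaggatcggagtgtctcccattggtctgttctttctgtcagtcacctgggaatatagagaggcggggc
On build GRCm38.p6 the stretches are chr17:53478984-53479233 on the plus strand for Rab5a, chr10:115315592-115315841 on the minus strand for Rab21 and chr11:100738216-100738465 on the minus strand for Rab5c. The palindrome ran from base 97 to base 88 before the start of Rab5a and from base 32 to base 23 before that of Rab21. Its core CACGTG was found in 5 Rab genes, the other 3 being Rab20, Rab23 and Rab27a, and in 8.33% of Rab windows against 6.02% of all windows. The longer TCACGTG, which overlaps both, was in 3 of 60 Rab windows and 3.13% of all windows, and CCAAT, the last motif searched, in 40.0% and 33.8%. The motifs were chosen after the differences were seen, and a match of letters is a description that shows no binding. The dinucleotide CG occurred a median of 16 times in the windows of measured Rab genes, 8 times in those of Rab genes not measured and 6 times in all windows. The group not measured has only 6 windows, and all windows cover 27025 genes without a split by being measured.

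Late endosome, lysosome and autophagy Rab genes had a median of 0.11 over the 5 genes above both floors, with 4 higher and 1 lower. With Rab9b, which was measured on the high-fat diet array alone, the median was 0.21. Rab29, whose protein recruits the kinase LRRK2 to Golgi and lysosomal membranes, had an intensity of 300.4 on the high-fat diet and 209.6 on chow, 1.43-fold higher, a difference of 0.52 in its only probe set. Rab9, which returns mannose 6-phosphate receptors from late endosomes to the Golgi, had 493.4 on the high-fat diet and 389.9 on chow, 1.27-fold higher. These 2 differences were 1.80 and 1.66 times the probe SD of their class. Rab9b, a close relative, was at 35.7 on the high-fat diet and below the floor on chow at 23.4, at least 1.25-fold higher. Rab7, the central organiser of fusion with lysosomes, had 1496.4 on the high-fat diet and 1390.7 on chow, and its pair of probe sets differed by 0.11 and 0.17. Rab24, linked to autophagy, differed by 0.03 in one probe set and by -0.35 in the other. Rab7b, which acts in transport from endosomes to the Golgi, went the other way in both of its measured probe sets, at -0.17 and -0.35. Rab32 and Rab38, known from melanosomes and other lysosome-related organelles, differed by 0.11 and 0.02, although the other probe set of Rab38 differed by 0.46.

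**Figure D2:**
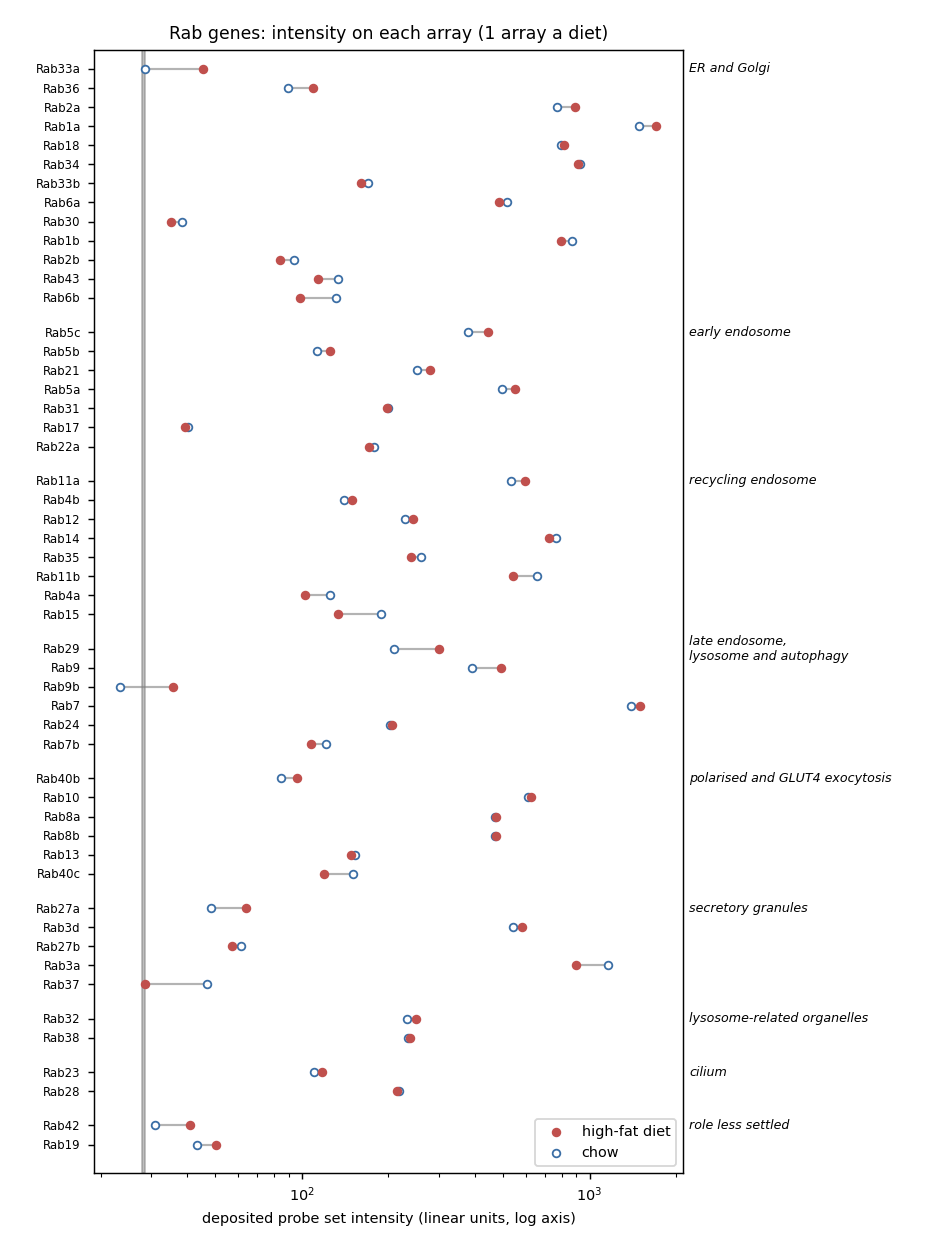
Deposited intensity (linear units on a log axis) of the probe set used for each of the 51 measured Rab genes on the high-fat diet array (filled) and the chow array (open), grouped by the role each gene is best known for. The grey band spans the floors of both arrays, and in most genes the points nearly coincide, with the widest gaps in Rab37, Rab33a, Rab9b, Rab29 and Rab15.

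Recycling endosome genes send cargo back to the cell surface. Of these 5 of 8 were lower, against 7442 of all 14066 measured genes, and the median was -0.10. Rab15, which regulates transport through recycling endosomes, had 133.2 on the high-fat diet and 189.1 on chow, 1.42-fold lower in its only probe set. Rab4a, of the fast recycling route, had 102.2 on the high-fat diet and 124.9 on chow, a difference of -0.29, and its other probe set differed by -0.12. Rab11b had 542 on the high-fat diet and 654 on chow, a difference of -0.27, with -0.35 and -0.20 in its other probe sets. All 3 genes were lower in each measured probe set. Among their paralogs, Rab4b differed by 0.10, and Rab11a by 0.16 in one probe set and -0.15 in the other. Rab14, of transport between the Golgi and endosomes, differed by -0.08 in the probe set used, and 4 of its 5 other measured probe sets were lower too. Rab35 differed by -0.11 and Rab12 by 0.09. Rab25, an epithelial relative of the Rab11 genes, was under both floors, at 19.4 on the high-fat diet and 24 on chow.

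Rab genes of the secretory route between endoplasmic reticulum and Golgi were measured in all 13 cases, with 5 higher, 8 lower and a median of -0.08. Rab1a, required for transport out of the endoplasmic reticulum, had 1708.3 on the high-fat diet and 1483.9 on chow, a difference of 0.20, with 0.24 and -0.07 in its other probe sets. Its paralog Rab1b had 793.1 on the high-fat diet and 868.6 on chow, a difference of -0.13. Rab2a, of the compartment between the organelles, differed by 0.22, and 3 of its 4 other measured probe sets were higher too. Rab2b differed by -0.16 in the probe set used and by -0.78, 0.18 and 0.36 in the others, which gives it no settled direction. Rab6a, of retrograde transport from the Golgi, differed by -0.08 and 0.08 in its brighter probe sets, while Rab6b, known mainly from neurons, had 98.6 on the high-fat diet and 131.4 on chow and was lower in all 3 measured probe sets, by -0.41, -0.27 and -0.15. Rab18, found on the endoplasmic reticulum and on lipid droplets, had 814.2 on the high-fat diet and 797.6 on chow, and its probe sets differed by 0.03 and 0.08. Rab34, which acts in the placement of lysosomes from the Golgi, differed by -0.02 and -0.03, and Rab33b, Rab30 and Rab43, of the Golgi, differed by -0.08, -0.13 and -0.24. In Rab43 the other probe sets differed by 0.10 and 0.23.

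Rab33a, which acts in vesicle transport from the Golgi, was the only Rab gene 1.5-fold or more higher, with 45.5 on the high-fat diet and 28.6 on chow, a difference of 0.67 in its only probe set. Its chow value equals the floor of that array. Rab36, another Golgi gene, had probe sets that opposed each other. The brighter had 109.6 on the high-fat diet and 89.5 on chow, a difference of 0.29, and the other had 56.1 on the high-fat diet and 117 on chow, a difference of -1.06.

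In the group of polarised and GLUT4 exocytosis, Rab10, Rab8a, Rab8b and Rab13 were nearly level in the probe set used. Rab10, the Rab through which insulin moves GLUT4 vesicles to the surface of fat cells, had 625 on the high-fat diet and 612.9 on chow, and its 3 probe sets differed by 0.03, 0.04 and 0.34. Rab8a and Rab8b, of polarised exocytosis, differed by 0.02 and 0.01, although another probe set of Rab8a differed by -0.42. Rab13, of junctions and surface delivery, had 148.7 on the high-fat diet and 153.6 on chow. Rab40b and Rab40c, which carry a domain that recruits a ubiquitin ligase, differed by 0.19 and -0.34, and the other probe set of Rab40c by -0.10. The median of the 6 genes was 0.01.

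Of the 9 secretory granule genes 5 were measured, with 2 higher, 3 lower and a median of -0.10. Rab3a, the Rab of synaptic vesicles, had 899.6 on the high-fat diet and 1162.8 on chow, 1.29-fold lower. The suffix of this probe set marks probes that may also match other transcripts. The probe sets used for Rab27b, Rab38, Rab4a and Rab14 carry suffixes of this kind too. The other probe set of Rab3a, without such a suffix, had 54 on the high-fat diet and 111.4 on chow, 2.06-fold lower. Both probe sets were thus lower, by unlike sizes. Rab37, known from secretory granules of mast cells and other cells, had 28.4 on the high-fat diet, just above the floor, and 46.8 on chow, 1.65-fold lower, the only Rab gene past 1.5-fold in that direction. Of the 6 mast cell markers above both floors 5 were lower, against 7442 of all 14066 measured genes. Their median was -0.09, and their summed intensity was 560.2 on the high-fat diet and 632 on chow. The widest gap among them was in Tpsb2, at 52.6 on the high-fat diet and 95.1 on chow. The others differed by -0.20 to 0.08. Ms4a2, Fcer1a and Mrgprb1 were above the floor on chow alone, Hdc was under both floors, and the part of these cells in the Rab37 value was not tested. Rab27a, of lytic granules and melanosomes, had 63.9 on the high-fat diet and 48.5 on chow, a difference of 0.40, with its 3 other probe sets under both floors. Rab27b differed by -0.10 and Rab3d, found in granules of exocrine cells, by 0.10, with 0.05 and -0.12 in the other probe sets of Rab3d above both floors and another, at 46.3 on the high-fat diet and 17.3 on chow, at least 1.62-fold higher. Rab3b, Rab3c, Rab26 and Rab44 were under both floors.

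The remaining genes have roles in the cilium or less settled ones. Rab23, a regulator of Hedgehog signalling and the cilium, and Rab28, of ciliary membranes, differed by 0.08 and -0.02, and the other probe set of Rab28 by -0.24. Rab42 had 40.9 on the high-fat diet and 30.9 on chow, and Rab19 had 50.1 on the high-fat diet and 43.2 on chow. Beside the granule genes and Rab25, the genes not measured were Rab20, at 7.9 on the high-fat diet and 7.8 on chow, Rab39, at 27.3 on the high-fat diet and 16.1 on chow, and Rab39b. A probe set below the floor gives only a bound on the level.

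Probe sets of the same gene often disagreed at these small sizes. Of the 26 Rab genes for which 2 or more probe sets lay above both floors, 14 had all of them on the same side of 0, 53.8% of genes against 48.6% of the 5196 such genes on the arrays. Their pooled SD around the gene mean was 0.29 in the Rab genes and 0.32 in all genes. Among the 98 measured Rab probe sets, 2 were 1.5-fold or more higher against 6.24% of all measured probe sets, and 4 were lower by that much against 6.73%. None was 2-fold higher, against 1.23%, and 2 were 2-fold lower against 1.35%, in Rab3a and Rab36.

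**Figure D3:**
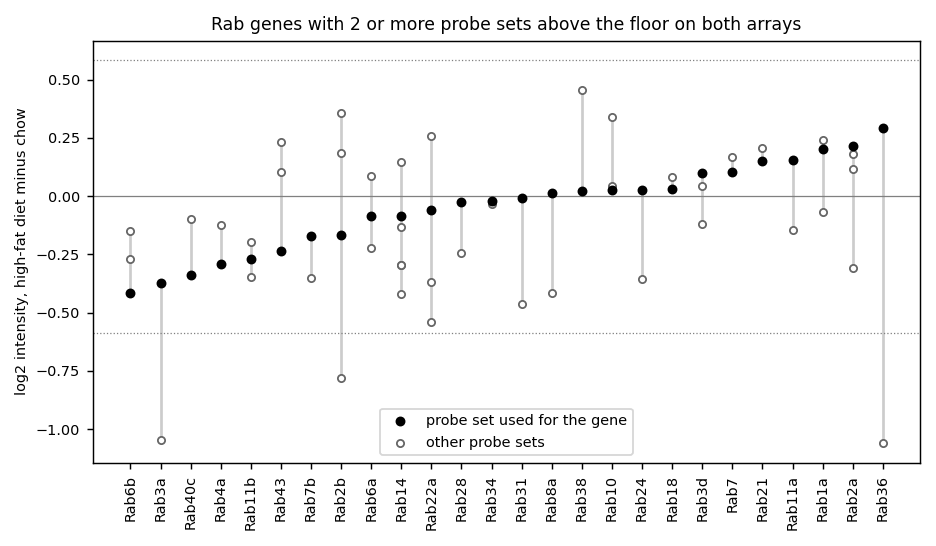
Log2 difference, high-fat diet minus chow (vertical axis), of each probe set of the 26 Rab genes for which 2 or more probe sets lay above both floors, with the brightest filled, the others open and dotted lines at 1.5-fold. The lowest points, below -1, belong to Rab3a, where the probe set used is also lower, and to Rab36, where it is higher.

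Genes that act on Rab proteins were described from lists. Rab proteins need a lipid tail, attached by the geranylgeranyl transferase Rabggta and Rabggtb with the escort proteins Chm and Chml, and the carrier Gdi2 takes them off membranes. None of the 8 measured genes of this list was past 1.5-fold, where 5.74% of all genes were higher and 6.33% lower by that much. Their median was 0.10. Gdi2 had 2318.5 on the high-fat diet and 2038.6 on chow, a difference of 0.19, and its 5 other probe sets were higher too. Rabggta, the alpha subunit, had 89.7 on the high-fat diet and 128.2 on chow, a difference of -0.52, while the beta subunit Rabggtb differed by -0.12. Chm differed by 0.21 in the probe set used and by 1.19 in the other, and Chml by 0.01.

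Exchange factors had a median of 0.04 over 43 measured genes, with 1 gene 1.5-fold or more higher and 2 lower, shares below the 5.74% and 6.33% of all genes. Dennd2d had 81.4 on the high-fat diet and 136.7 on chow, 1.68-fold lower, and its other probe set differed by -1.53. Dennd1b, an exchange factor for Rab35, was 1.52-fold lower, with -0.41 in its other probe set. Dennd4a, an exchange factor for Rab10, was 1.61-fold higher, at 160 on the high-fat diet and 99.2 on chow, but its other probe set differed by -0.09.

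Activating proteins, which switch Rab proteins off, had a median of -0.17 over 35 measured genes against -0.02 for all genes. Over the 33 above both floors it was -0.15, with 21 lower and 12 higher. Of all 14066 measured genes 7442 were lower and 6582 higher. With the mean of all probe sets per gene the median was -0.05. Of the 35 genes 1 was 1.5-fold or more higher, against 5.74% of all genes, and 2 were lower, against 6.33%. Tbc1d4, also called AS160, which holds Rab10 inactive until insulin acts, had 262.4 on the high-fat diet and 335.3 on chow, a difference of -0.35, and its other probe set differed by -0.95. Its relative Tbc1d1 differed by 0.39 and by 0.55 in its other probe set, at a weak 60.4 on the high-fat diet and 46.1 on chow. Grtp1 was 1.75-fold higher, its other probe set by 1.16 log2 units, and Tbc1d22a was 1.64-fold lower, at 107.6 on the high-fat diet and 176.4 on chow. Sgsm2, outside the naming rule and chosen after its values were seen, was at 17 on the high-fat diet, under the floor, and at 74.4 on chow, at least 2.67-fold lower.

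Effectors had a median of -0.05 over 56 measured genes, with 3 past 1.5-fold in the higher direction, against 5.74% of all genes, and 2 in the lower, against 6.33%. One of the 3, Rims1, was above the floor on the high-fat diet array alone. Rab11fip1, a partner of the Rab11 proteins in recycling, had 61.7 on the high-fat diet and 30.9 on chow, 2.00-fold higher, and its chow value lay close to the floor. Rufy2 was 1.70-fold higher and Micall1, an adaptor of recycling endosomes, was 2.16-fold lower, at 133.7 on the high-fat diet and 289.4 on chow. Rims2 was 2.36-fold lower in one probe set while its other differed by 0.69. Rims1, chosen after its values were seen, had 45.5 on the high-fat diet and was below the floor on chow at 24.2, at least 1.59-fold higher.

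In the list of GLUT4 vesicle traffic, where Rab10 acts, 17 of 26 genes were lower, against 7442 of all 14066 measured genes. The median was -0.10. Slc2a4, which encodes GLUT4 itself, had 634 on the high-fat diet and 898.3 on chow, a difference of -0.50, with -0.69 in its other probe set. Vamp2, a fusion protein of the vesicle, had 111.8 on the high-fat diet and 238.1 on chow, 2.13-fold lower, but its other probe set differed by -0.03. Stx4a, its partner on the surface membrane, had 134.1 on the high-fat diet and 237 on chow, 1.77-fold lower. Exoc4, a subunit of the exocyst tether, was 1.52-fold higher, and all 3 of its other probe sets were higher. In this list 1 of 26 genes was thus 1.5-fold or more higher, against 5.74% of all genes, and 2 were lower, against 6.33%, which gives counts near the background.

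**Figure D4:**
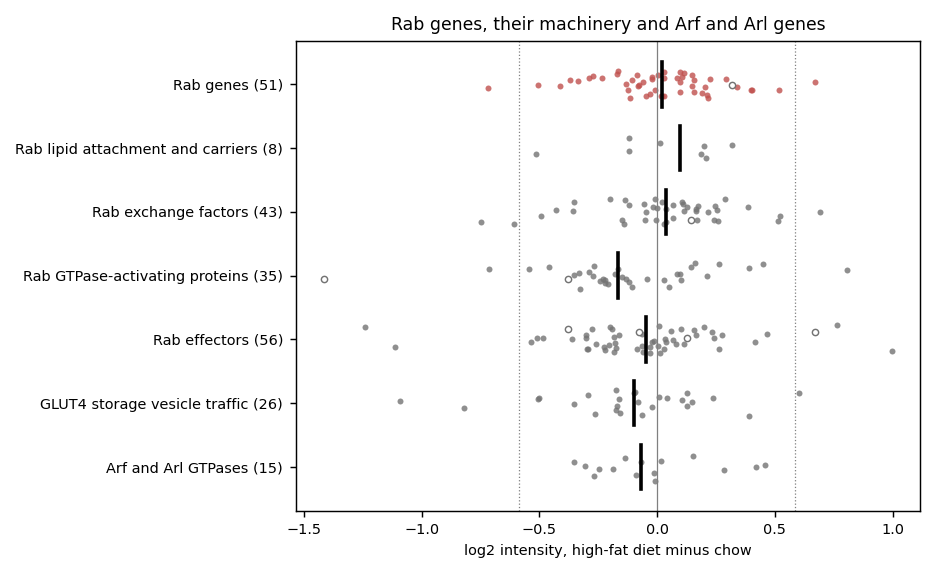
Log2 difference, high-fat diet minus chow (horizontal axis), of each measured gene in the Rab family, the lists of its machinery and the list of Arf and Arl genes, with the number of genes in brackets, open points for genes above the floor on 1 array, bars at the medians and dotted lines at 1.5-fold. The Rab genes run from -0.72 to 0.67, and the list medians run from -0.17 to 0.10.

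Genes of another small GTPase group were set beside the Rab genes. A list of Arf and Arl genes and relatives such as Sar1a, which act on vesicle coats and organelle positions, had 17 genes on the array. It was not drawn by a symbol rule and need not hold the whole family. The 15 measured genes of this list had a median of -0.07 with 0 past 1.5-fold. Of all genes 5.74% were higher and 6.33% lower by that much. The difference between the groups was not tested.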

How the data were processed

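Per the labels' protocols, RNA came from a Trizol extraction, and biotinylated cRNA from 10 µg of it went onto an Affymetrix mouse array. The table deposited by the authors has 45037 probe sets with a linear intensity for each array; how probes were summarised and scaled is not given in the sources used. Means trimmed by 2% at each end were 99.6 on both arrays, and the medians differed by -0.03 log2 units, under the limit of 0.1, so values were used as deposited. Names came from the 2016 platform annotation, and 34741 single-symbol probe sets matched RefSeq by gene ID; 932 with several symbols and 9160 with none were left out. Values were raised to each array's 40th percentile before log2 was taken, and a gene took its measured probe set of highest mean log2 intensity, which leaves the diet difference out of the choice. Python 3.11.15, pandas 2.3.3 and statsmodels 0.14.6 were used, and the steps were tested on simulated data. Alternatives changed the floor, the scaling and the probe set. The members, lists and rules were chosen with earlier results of these data known. Every Rab gene could be named. Of the other lists, genes 1.5-fold apart above the floor on both arrays were named, up to 5 a direction, with a few fixed genes. Marker lists of other cells were compared over genes above both floors. Their median differences were -0.10 for macrophage, 0.07 for neutrophil, 0.13 for T and NK cell, -0.07 for B cell, 0.04 for endothelial, -0.34 for mesothelial, -0.19 for epididymal epithelium, -0.23 for epithelial, -0.06 for neuronal, -0.43 for smooth muscle and -0.22 for skeletal muscle genes. These medians rest on 3 genes each for epididymal epithelium and skeletal muscle, on 5 for neutrophil and on 15 for macrophage. In every list but epididymal epithelium some genes were higher and some lower. The part of these cells in the Rab values was not tested.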

Additional observations from a re-analysis of the deposited data

How the results depend on the processing

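Each setting was changed on its own in 9 alternatives. Of the 51 Rab genes 40 had a value in all 9, and 24 of these kept one sign, 9 higher and 15 lower. The other 11 lacked a value in at least 1, and 10 of them kept one sign in the rest. Centring on reference genes, 1 of the 9, lowered every difference by 0.079. It could therefore turn higher genes lower but not the reverse, which bears on the split of 9 and 15. Rab33a and Rab37 ranged from 0.46 to 0.70 and from -0.80 to -0.50. Both were under 1.5-fold with a pseudocount of 16 in place of the floor, where 0 Rab genes were 1.5-fold higher and 0 lower. Of all 14066 genes, 757 were 1.5-fold higher and 851 lower with this pseudocount. The Rab counts were also 0 and 0 with the floor at the 60th percentile, where 44 Rab genes were measured, without Rab33a and Rab37. Of the 10723 genes measured there, 386 were higher and 421 lower by that much. With the floor at the 20th percentile 57 Rab genes were measured. Of these 5 were higher, namely Rab33a, Rab9b, Rab26, Rab39 and Rab44. Lower were 2, Rab37 and Rab3c, with Rab3c as 1 gene past 2-fold. Of the 16624 genes measured there, 1627 were 1.5-fold higher, 1740 were 1.5-fold lower and 713 were 2-fold lower. With the mean of all probe sets 2 Rab genes were 1.5-fold lower, against 803 of all 14066 genes. With plain probe sets 2 of 46 Rab genes were 1.5-fold lower and 1 past 2-fold, against 817 and 174 of 12320 genes. The gene added in both settings was Rab3a. Centring on reference genes moved the Rab median to -0.057 and that of all genes to -0.10, and split all genes past 2-fold into 117 higher and 255 lower, against 163 and 187. It moved the medians of exchange factors to -0.041, activating proteins to -0.25, effectors to -0.13 and GLUT4 vesicle genes to -0.18. The early endosome median was 0.016 with the mean of all probe sets and -0.0080 when each gene took its least different probe set, the median of activating proteins -0.050 with the mean, and that of GLUT4 vesicle genes -0.032 with the least different probe set. The secretory granule median was -0.30 with plain probe sets, -0.0033 with the floor at the 20th percentile and 0.013 at the 60th, where its sign turned. Weak signal limits Rab33a, Rab37, Rab42, Rab9b and Rab30, which lie near the floor. No paired analysis was possible because each diet has 1 array.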
